A study of Arabidopsis thaliana with 6 samples.

Results

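The loci described here are 10 Arabidopsis thaliana genes that form the feedback circuits between miRNAs and the proteins that make or use them, out of 32420 loci measured. They were chosen by locus identifier: MIR168A (AT4G19395), MIR168B (AT5G45307) and their target AGO1 (AT1G48410), MIR162A (AT5G08185), MIR162B (AT5G23065) and their target DCL1 (AT1G01040), MIR838 (AT1G01046), which lies inside DCL1, and MIR403 (AT2G47275) with its targets AGO2 (AT1G31280) and AGO3 (AT1G31290). All 10 were in the table.

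Small RNAs were recovered with an AGO1 antibody from the aerial parts of 20-day-old, untreated plants kept for 6 days on MS medium and then 14 days on soil. The 3 genotypes were Col-0 (wild type), ein5-1 dcl4-2 (ein5 dcl4) and ein5-1 dcl4-2 dcl2-1 (ein5 dcl4 dcl2, the triple mutant), each with 2 biological replicates. Both mutants carried the same ein5-1 and dcl4-2 alleles, and Col-0 carried neither. EIN5 encodes an exonuclease that degrades uncapped mRNA in the cytoplasm, and DCL4 and DCL2 encode Dicer-like enzymes that cut siRNAs from double-stranded RNA.

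A miRNA is cut from a hairpin precursor by DCL1 and is loaded into an ARGONAUTE protein, most often AGO1, which then represses mRNAs with a matching site. The mRNAs for DCL1, AGO1, AGO2 and AGO3 carry such sites themselves, so the machinery is under the control of its own products. A cleaved target can also be copied into double-stranded RNA and diced into siRNAs. Small RNAs at a MIR locus are therefore mostly the miRNA, while those at a target gene are fragments or siRNAs of that gene and not its mRNA level.

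The mature guide strands are shown first because the circuits are defined by them. They were read 5′ to 3′ from the RefSeq annotation of TAIR10.1, with the seed, bases 2 to 8, in capitals. miR168 and miR162 each have 2 genome copies of identical sequence, so a guide read alone cannot name its locus, whereas miR403-3p and miR838 occur once. The passenger strands of the MIR168 pair differ, and both are shown for that reason. The 4 guide strands begin with U, the first base that AGO1 is known to prefer, and no 2 of the circuits share a seed.
miR168a-5p and miR168b-5p: uCGCUUGGugcaggucgggaa
miR168a-3p: cCCGCCUUgcaucaacugaau
miR168b-3p: cCCGUCUUguaucaacugaau
miR162a-3p and miR162b-3p: uCGAUAAAccucugcauccag
miR403-3p: uUAGAUUCacgcacaaacucg
miR838: uUUUCUUCuacuucuugcaca

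The best-matching site for each guide was then located in the target's transcript, with the bases opposite the seed in capitals. The AGO1 site is coding sequence in exon 2 of 22, at chr1:17891529-17891549 on the minus strand, and holds 18 canonical pairs, 1 G:U pair and 2 mismatches. The DCL1 site spans the junction of exons 12 and 13 of 20, at chr1:27522-27627 on the plus strand, and pairs at all 21 bases of miR162 if 1 extra target base is left unpaired. The AGO2 site lies in the 3′ UTR at chr1:11185223-11185243 on the plus strand and pairs at 20 of 21 bases. The AGO3 site, also in the 3′ UTR, at chr1:11192398-11192419 on the plus strand, pairs at 20 of 21 bases with 1 extra target base. AGO2 and AGO3 thus carry the same 7 bases opposite the miR403 seed and differ further upstream. A match is a description of sequence, and cleavage was not measured.
AGO1 site: uucccgagcugcaUCAAGCUa
DCL1 site: cuggaugcagaggUaUUAUCGa
AGO2 site: ggaguuugugcguGAAUCUAa
AGO3 site: ggauguuugugcguGAAUCUAa

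The deposited table held 1 mean per genotype, from which the reads of both libraries were recovered as whole numbers, between 836879 and 1292727 reads per library. The libraries are called a and b because nothing ties them to a replicate number. A single read stood for 0.185 and 0.257 units in the wild-type libraries and for 1.71 to 2.79 units in the mutants. These steps were the inverse of the median-of-ratios size factors over the 2300 loci with reads in all 6 libraries, of which 1388 were pseudogenes, 758 protein-coding genes and 76 miRNA loci. A deposited unit is therefore a read scaled to that set of mostly pseudogenes. The miRNA loci held 65.5% and 68.2% of the reads in wild type, 3.69% and 4.80% in ein5 dcl4, and 96.5% and 96.0% in the triple mutant. Pseudogenes held 273 and 243 reads per 1000 miRNA-locus reads in wild type, 308 and 227 in ein5 dcl4, and 21.7 and 24.9 in the triple mutant. Protein-coding genes held 242 and 214, 25750 and 19590, and 14.0 and 16.01 on the same scale. Levels between genotypes hence depend on the scaling. Results are given in deposited units and as ratios within a library, and other scalings are named where they change a result. These set all miRNA-locus reads equal between libraries (equal miRNA totals), set all reads in the table equal (equal table totals), or used a trimmed mean of the log ratios between libraries (trimmed-mean rescaling). Small RNA reads at the green-tissue markers RBCS1A, CAB3 and LHCB2.1 were present in all 6 libraries (4 to 64 reads), and the root marker PYK10 had 0 reads in wild type and in the triple mutant and 4 and 3 in ein5 dcl4. The mutated loci had too few reads to check the genotypes, with 26 and 5 at EIN5 in wild type against 0 to 1 in the mutants, and at most 8 at DCL4 and 2 at DCL2 in any library. Loading onto AGO1, abundance of the small RNA, fewer cells of a type and less RNA per cell cannot be told apart in these bulk libraries.

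**Figure D1:**
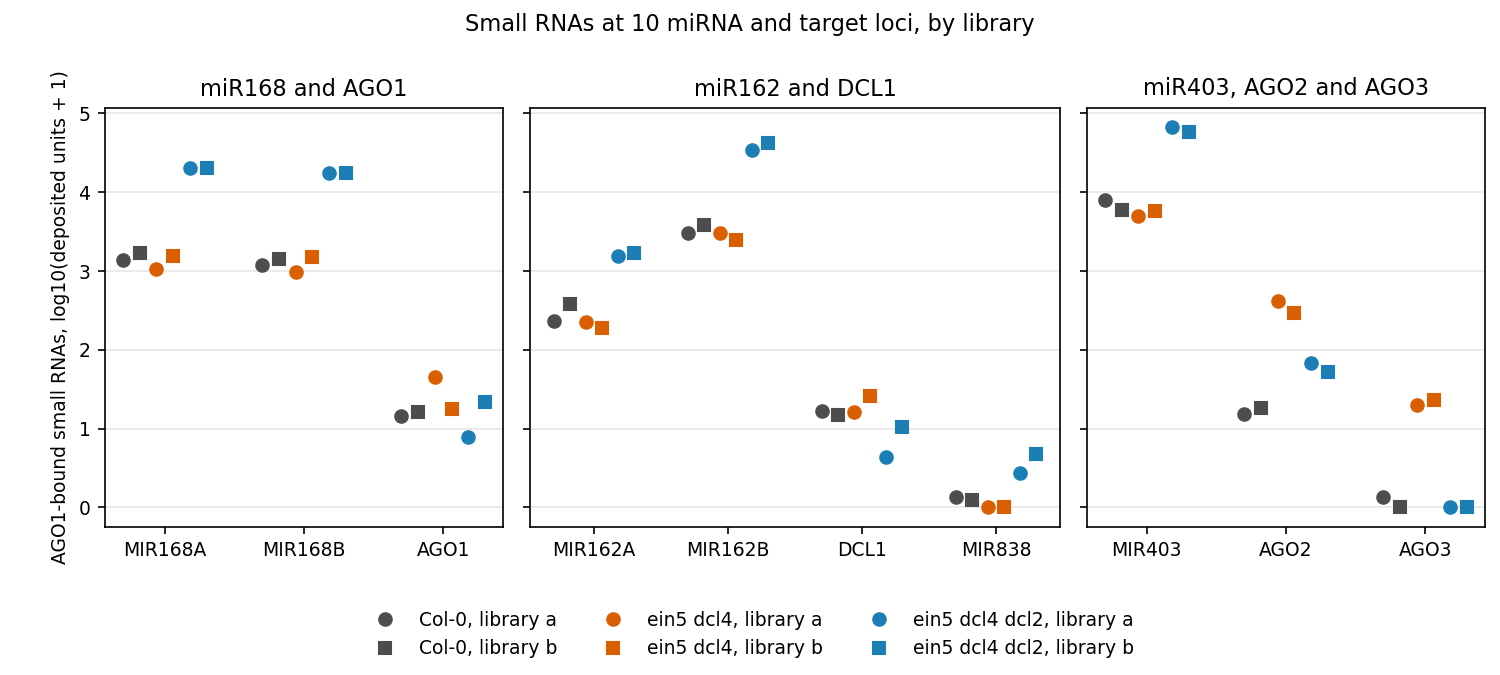
Small RNAs at the 10 loci in each of the 6 libraries, as log10 of deposited units plus 1, with 1 panel per circuit; points are single libraries and colours are genotypes. The 5 abundant MIR loci were highest in the triple mutant, while AGO2 and AGO3 were highest in ein5 dcl4 (AGO2 at 417 and 296 units against 14.4 and 17.5 in Col-0).

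AGO2 small RNAs rose in ein5 dcl4 and fell again in the triple mutant. AGO2 encodes an ARGONAUTE known for antiviral defence and for taking over when AGO1 is blocked. It held 14.4 and 17.5 units in the Col-0 libraries, from 78 and 68 reads, then 417 and 296 units in ein5 dcl4, from 218 and 106 reads. In the triple mutant it held 66.6 and 51.3 units, from 39 and 27 reads. The 3 genotypes did not overlap, and ein5 dcl4 was highest. The mean rose from 15.9 ± 2.13 to 357 ± 86.2 units (SD, n = 2) in ein5 dcl4, a log2 difference of 4.38 (SE 0.30, limma adjusted p = 0.00120). It fell by 2.57 (SE 0.30, limma adjusted p = 0.00351) on the log2 scale in the triple mutant relative to ein5 dcl4, to 59.0 ± 10.8 units. Relative to Col-0 the triple mutant stood at 1.82 (SE 0.30, limma adjusted p = 0.0750), which missed the threshold of 0.05. That value was called when only the 2 genotypes were fitted (adjusted p = 0.0261), with a mean of at least 10 units (0.00644) and by limma's voom on the recovered reads (0.00311). It turned to -1.44 with equal miRNA totals (adjusted p = 0.0513) and to -0.98 with equal table totals (0.0277).

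These AGO2 changes went in the direction of most protein-coding genes. In ein5 dcl4 over Col-0, 38.7% of the 11376 loci tested and 55.4% of the 7833 protein-coding loci were called higher, with a protein-coding median of 2.13 on the log2 scale. AGO2 ranked 560 of those 7833 from the highest difference. For ein5 dcl4 dcl2 over ein5 dcl4, 35.9% of all loci and 50.6% of protein-coding loci were called lower, with a median of -2.10. There AGO2, at -2.57, ranked 5415 of 7833 from the highest difference, close to that median. Both comparisons share the ein5 dcl4 libraries. In the authors' deposited table AGO2 had a log2 fold change of 4.49 for ein5 dcl4 over Col-0 (adjusted p = 9.3e-24) and of 2.60 over ein5 dcl4 dcl2 (adjusted p = 1.55e-07).

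AGO3, the neighbour of AGO2 at a distance of 2723 bases, had few reads in any library. It held 2 and 0 reads in wild type, 10 and 8 in ein5 dcl4, and 0 in both libraries of the triple mutant, so ein5 dcl4 stood apart. These came to 0.370 and 0 units, then 19.2 and 22.3 units, then 0. The ratio of ein5 dcl4 to Col-0 was 95.01 with an exact 95% interval of 22.8 to 844 for counting error. The level in ein5 dcl4 was at least 3.83-fold higher than in the triple mutant, taking 3 reads per library as the limit that 0 reads allow. limma called both differences (adjusted p = 0.00202 and 0.00163), and AGO3 passed the filter of a mean of at least 1 unit only through ein5 dcl4. AGO2 and AGO3 share 163 stretches of 21 bases, 4.60% of those in AGO2, and the assignment of reads that match both genes is not given in the sources used here.

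MIR403, the source of the guide for both genes, was highest in the triple mutant in deposited units. It held 7929 and 5966.5 units in wild type and 4933 and 5725 in ein5 dcl4, then 67127 and 57310 in the triple mutant. The triple mutant did not overlap the other genotypes, which lay much closer to each other. The log2 difference was -0.37 (SE 0.17, limma adjusted p = 0.135) in ein5 dcl4 over Col-0 and 3.54 (SE 0.17, limma adjusted p = 0.000447) in ein5 dcl4 dcl2 over ein5 dcl4, the latter turning to -0.50 with equal miRNA totals. As a share of miRNA-locus reads, MIR403 held 5.37% and 3.56% in wild type, 5.40% and 5.11% in ein5 dcl4, and 3.69% and 3.73% in the triple mutant. The share was thus lower in the triple mutant than in ein5 dcl4, without overlap (exact permutation p = 0.333), where the units were higher. With equal miRNA totals limma did not call MIR403 in that comparison.

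The ratio of target reads to miRNA reads within a library does not depend on the scaling between libraries. Per 1000 MIR403 reads, AGO2 held 1.82 and 2.93 reads in wild type, 84.6 and 51.6 in ein5 dcl4, and 0.993 and 0.895 in the triple mutant. The ein5 dcl4 ratio stood 28.5-fold above wild type, a log2 difference of 4.84, and 69.3-fold above the triple mutant. The triple mutant ratio was 2.43-fold below wild type. No genotypes overlapped, and the exact two-sided permutation p was 0.333 for each, the smallest that 2 libraries against 2 allow. Protein-coding genes as a class went the same way, with 242 and 214 reads per 1000 miRNA-locus reads in wild type. They held 25750 and 19590 in ein5 dcl4, and 14.0 and 16.01 in the triple mutant. Whether the AGO2 ratio differs from that class was not tested. AGO3 held 0.0467 and 0 reads per 1000 MIR403 reads in wild type and 3.88 and 3.90 in ein5 dcl4, with 0 in the triple mutant, where counting error allowed up to 0.122.

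A second denominator, all pseudogene reads of the library, was added after the values were seen. Deposited units are themselves scaled to a set of mostly pseudogenes, so this denominator stays close to them and is not a separate check of them. Per 100000 pseudogene reads, AGO2 held 35.8 and 42.9 in wild type, 1484 and 1163 in ein5 dcl4, and 169 and 134 in the triple mutant. With this denominator ein5 dcl4 dcl2 stood 3.87-fold above wild type, the opposite direction to the ratio against MIR403. With it ein5 dcl4 stood 33.4-fold above wild type and 8.63-fold above the triple mutant, the same directions as against MIR403.

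**Figure D2:**
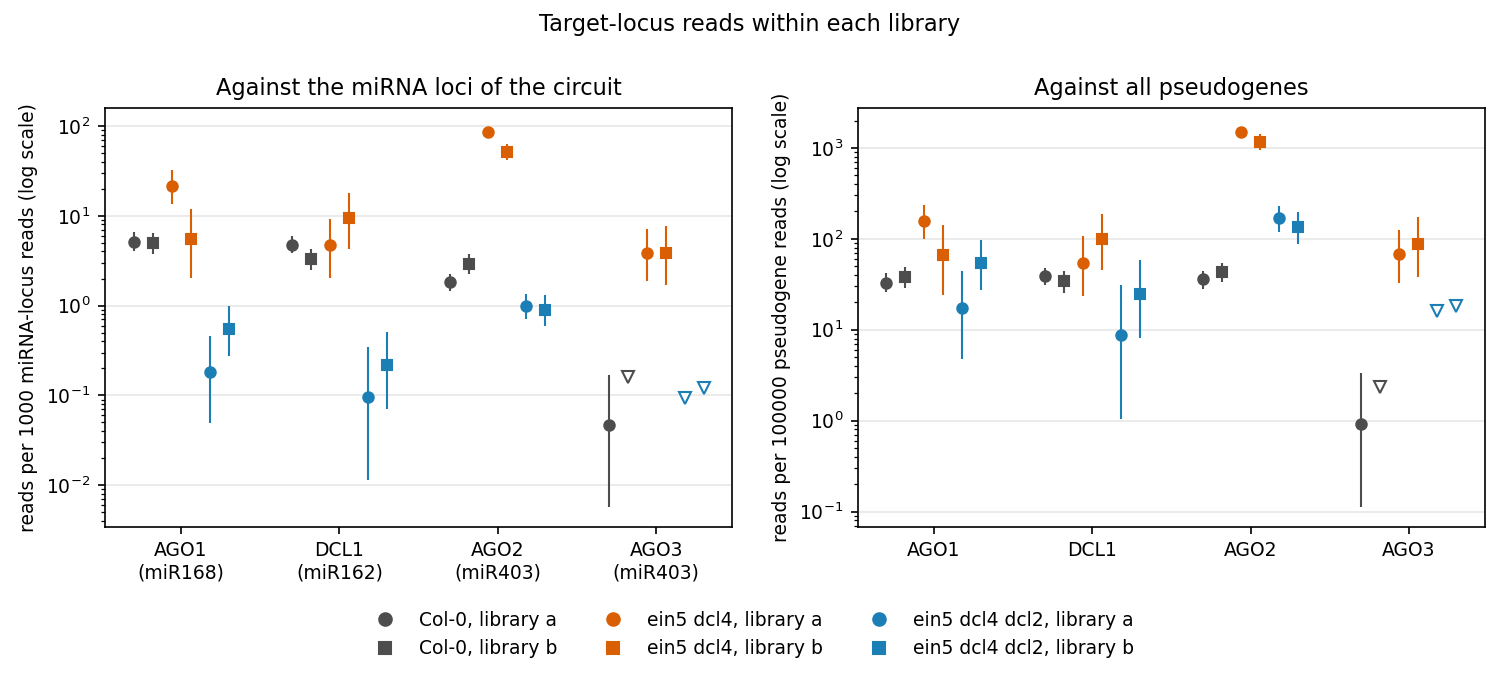
Reads at the 4 target genes in each library, per 1000 reads at the MIR loci of the circuit (left) and per 100000 pseudogene reads (right), both on log axes. Bars are exact 95% intervals for counting error, and open triangles mark the upper limit where a library had 0 reads. AGO2 in ein5 dcl4 stood above the other genotypes in both panels, at 84.6 and 51.6 on the left and 1484 and 1163 on the right, while AGO1 in the triple mutant was low on the left and overlapped Col-0 on the right.

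AGO1, the main miRNA effector and the target of miR168, had low small RNA levels and no called difference. It held 13.3 and 15.4 units in wild type, from 72 and 60 reads, then 44.0 and 16.7 in ein5 dcl4, from 23 and 6 reads, and 6.83 and 20.9 in the triple mutant, from 4 and 11 reads. The libraries of a mutant stood further apart than those of wild type, and the triple mutant pair lay on either side of wild type. The log2 differences were 0.88 (SE 0.68, limma adjusted p = 0.344) in ein5 dcl4 over Col-0, and -1.11 (adjusted p = 0.253) and -0.23 (adjusted p = 1.0) in ein5 dcl4 dcl2 over ein5 dcl4 and over Col-0. The first value was 0.21 without ein5 dcl4 library a and turned to -2.32 (adjusted p = 0.0171) with equal table totals. The second passed the threshold with equal miRNA totals (-4.63, adjusted p = 0.00247). The last was 0.52 without ein5 dcl4 dcl2 library a, and it passed the threshold with equal table totals (-2.94, adjusted p = 0.0122) and with equal miRNA totals (adjusted p = 0.0471). Whether the difference of AGO1 differs from that of AGO2 was not tested. Per kilobase of exon, AGO1 and AGO2 held similar levels in wild type, 3.95 and 4.43 units, while in ein5 dcl4 AGO1 held 8.35 and AGO2 99.0.

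Per 1000 reads at MIR168A and MIR168B, AGO1 held 5.17 and 4.96 reads in wild type, 21.6 and 5.48 in ein5 dcl4, and 0.180 and 0.551 in the triple mutant. The Col-0 libraries lay close together, and ein5 dcl4 library b was within counting error of them, with an exact 95% interval of 2.01 to 12.0. The ein5 dcl4 value over Col-0 was 1.17 on the log2 scale (exact permutation p = 0.333), but 0.22 without ein5 dcl4 library a and 2.11 without library b. The ein5 dcl4 dcl2 ratio was 14.9-fold below wild type. All protein-coding reads per 1000 miRNA-locus reads fell as well, from 242 and 214 in wild type to 14.0 and 16.01 in the triple mutant. Per 100000 pseudogene reads AGO1 held 33.0 and 37.8 in wild type and 17.3 and 54.5 in the triple mutant, which overlapped, and 157 and 65.8 in ein5 dcl4. The low AGO1 ratio of the triple mutant was thus seen against miR168 and not against pseudogenes, whose own reads per 1000 miRNA-locus reads were low there (21.7 and 24.9), and their part in the ratio was not tested.

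In deposited units the MIR168 genes were highest in the triple mutant. MIR168A held 1374 and 1683 units in wild type, 1065 and 1551 in ein5 dcl4, and 20503 and 20304 in the triple mutant. MIR168B held 1207 and 1425 units in wild type, 977 and 1503 in ein5 dcl4, and 17389 and 17598 in the triple mutant. Col-0 and ein5 dcl4 overlapped for both genes, and ein5 dcl4 dcl2 was above all other libraries. The log2 difference of ein5 dcl4 dcl2 over ein5 dcl4 was 3.99 (SE 0.21, limma adjusted p = 0.000538) for MIR168A and 3.85 (SE 0.22, limma adjusted p = 0.000730) for MIR168B, and these turned to -0.057 and -0.19 with equal miRNA totals. For ein5 dcl4 over Col-0 they were -0.24 (adjusted p = 0.384) and -0.11 (adjusted p = 0.693).

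Within the miRNA pool the MIR168 pair took a somewhat larger share in both mutants than in wild type, a difference that limma did not call. MIR168A made up 0.930% and 1.00% of miRNA-locus reads in wild type, 1.16% and 1.38% in ein5 dcl4, and 1.13% and 1.32% in the triple mutant. MIR168B made up 0.817% and 0.850%, 1.07% and 1.34%, and 0.957% and 1.14% in the same order. Each mutant lay above wild type without overlap, by 1.32-fold and 1.27-fold in the means for MIR168A and by 1.45-fold and 1.26-fold for MIR168B. The exact permutation p was 0.333 for each, the smallest possible. How many other miRNA loci also had shares without overlap was not counted, so the separation is a description only. With equal miRNA totals limma called neither gene in ein5 dcl4 over Col-0 (adjusted p = 0.119 and 0.0657), and 19 of 126 miRNA loci higher. Neither was called in ein5 dcl4 dcl2 over Col-0 with that scaling, where 3 miRNA loci were higher. MIR168A held 1.03 to 1.18 reads for each read at MIR168B in all 6 libraries. The guide strands printed above are identical, and how reads that match both loci were assigned is not given in the sources used here.

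**Figure D3:**
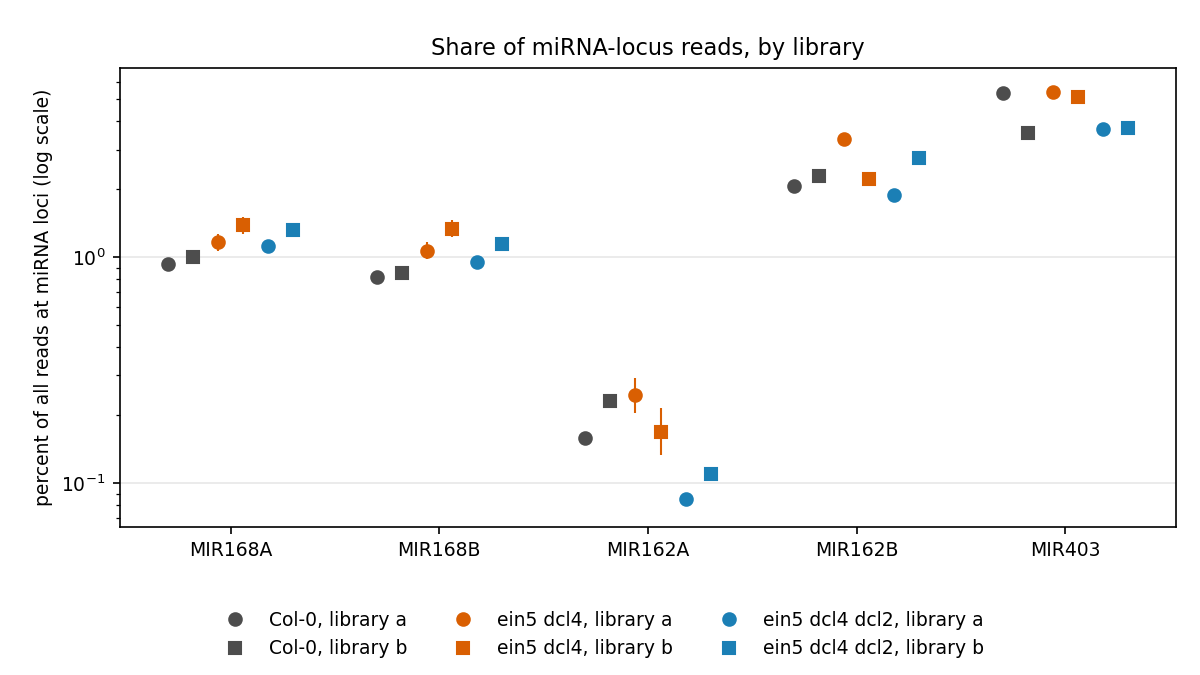
Share of all miRNA-locus reads at 5 MIR genes in each library, in percent on a log axis, with Wilson 95% intervals for counting error. The shares of MIR168A and MIR168B lay above wild type in both mutants, a difference that limma did not call with equal miRNA totals. MIR162A was lowest in the triple mutant (0.0849% and 0.110%).

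DCL1, the enzyme that cuts miRNA precursors and the target of miR162, had no called difference in deposited units at the settings used throughout. It held 15.7 and 13.9 units in wild type, from 85 and 54 reads, then 15.3 and 25.1 in ein5 dcl4, from 8 and 9 reads, and 3.42 and 9.50 in the triple mutant, from 2 and 5 reads. The triple mutant was below both other genotypes in every library, while Col-0 and ein5 dcl4 overlapped. The log2 difference was 0.39 (SE 0.53, limma adjusted p = 0.568) in ein5 dcl4 over Col-0 and -1.60 (adjusted p = 0.0578) in ein5 dcl4 dcl2 over ein5 dcl4. Against wild type the triple mutant value was -1.21 (adjusted p = 0.390). The second value passed the threshold under 4 of 15 alternatives. Deposited units were kept with a pseudocount of 5 (-1.16, adjusted p = 0.0444), a mean of at least 10 units (-1.60, adjusted p = 0.0469) and without ein5 dcl4 dcl2 library b (-2.22). The other alternative was equal miRNA totals (-4.80, adjusted p = 0.000505). The third value passed the threshold with equal miRNA totals (-3.78, adjusted p = 0.00547) and with equal table totals (-3.85, adjusted p = 0.00263). With equal table totals the first turned to -2.79 (adjusted p = 0.00412). DCL1 overlaps 2 genes on the opposite strand, AT1G03993 and AT1G01050, and whether strand was used in counting is not given in the sources used here.

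Per 1000 reads at MIR162A and MIR162B, DCL1 held 4.77 and 3.29 reads in wild type, 4.68 and 9.34 in ein5 dcl4, and 0.0950 and 0.216 in the triple mutant. The ein5 dcl4 dcl2 ratio was 23.8-fold below wild type and 41.7-fold below ein5 dcl4 (exact permutation p = 0.333 for each). Protein-coding genes as a class fell too, to 14.0 and 16.01 reads per 1000 miRNA-locus reads in the triple mutant. They held 242 and 214 in wild type and 25750 and 19590 in ein5 dcl4, and whether DCL1 differs from them was not tested. The 1.75-fold difference between ein5 dcl4 and Col-0 came from library means, counted with 0.5 reads added. It was 0.32 on the log2 scale without ein5 dcl4 library b and 1.30 without library a. Per 100000 pseudogene reads, DCL1 held 39.0 and 34.1 in wild type and 8.66 and 24.8 in the triple mutant, a 2.14-fold difference in place of 23.8-fold. In ein5 dcl4 it held 54.5 and 98.7 on that scale.

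MIR162B was assigned most of the reads at the 2 MIR162 loci. It held 3068 and 3824 units in wild type, 3047 and 2499 in ein5 dcl4, and 34419 and 42311 in the triple mutant. MIR162A held 233 and 386 units in wild type, 224 and 190 in ein5 dcl4, and 1543 and 1685 in the triple mutant. Both were highest in the triple mutant and lay below wild type in ein5 dcl4 by less than the test could call. The log2 differences in ein5 dcl4 over Col-0 were -0.31 (limma adjusted p = 0.211) for MIR162B and -0.54 (adjusted p = 0.178) for MIR162A. For ein5 dcl4 dcl2 over ein5 dcl4 they were 3.79 (limma adjusted p = 0.000422) and 2.96 (adjusted p = 0.00219). With equal miRNA totals they turned to -0.26 (limma adjusted p = 0.405) and -1.08 (adjusted p = 0.0307), so MIR162A was called lower at that scaling.

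The reads at MIR162B relative to MIR162A were more numerous in the triple mutant. MIR162B held 13.2 and 9.91 reads per MIR162A read in wild type and 13.6 and 13.2 in ein5 dcl4, then 22.3 and 25.1 in the triple mutant. The triple mutant lay above the other 4 libraries, a comparison chosen after the values were seen and with no test. As a share of miRNA-locus reads, MIR162A stood at 0.158% and 0.230% in wild type and at 0.0849% and 0.110% in the triple mutant, without overlap (exact permutation p = 0.333). MIR162B did not separate, at 2.08% and 2.28% in wild type, 3.33% and 2.23% in ein5 dcl4, and 1.89% and 2.75% in the triple mutant. The guides of the pair are the same sequence, as are miR162a-5p and miR162b-5p, each with 2 genome copies. No mature miR162 read can therefore name its locus, and the 2 hairpins share 13 stretches of 21 bases. The split thus depends on how shared reads were assigned, which is not given in the sources used here, and it does not show which gene made the miRNA.

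MIR838, cut from intron 14 of DCL1, was close to the detection limit. It held 2 and 1 reads in wild type, 0 in both ein5 dcl4 libraries, and 1 and 2 in the triple mutant. MIR838 passed the filter of a mean of at least 1 unit only through the triple mutant. The difference between ein5 dcl4 dcl2 and ein5 dcl4 was called by limma (adjusted p = 0.0271), but 8 of 9 alternative settings ended the call, and 3 reads against 0 give no usable fold. In ein5 dcl4, where 1 read was worth 1.92 and 2.79 units, a level as in wild type was not detectable.

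Counted over the 10 loci, all of which passed the filter, 2 were called higher and 0 lower in ein5 dcl4 over Col-0, against 38.7% and 6.45% of all loci tested. AGO2 and AGO3 were the higher pair, of which AGO3 passed the filter only through ein5 dcl4, and 0 were lower at an unadjusted p under 0.05 as well. limma's voom on the recovered reads also called 0 lower, with 1 at an unadjusted p under 0.05. In ein5 dcl4 dcl2 over ein5 dcl4, 6 were called higher, all of them MIR genes, and 2 lower, against 11.3% and 35.9% of all loci. MIR838, 1 of these 6, passed the filter only through the triple mutant, the genotype in which it was called high. Of the 132 miRNA loci tested 84.1% were higher in that comparison, with a median of 3.70. MIR168A, MIR168B, MIR162B and MIR403 stood near that median, at 3.54 to 3.99, while MIR162A (2.96) and MIR838 (1.85) stood below it. In ein5 dcl4 dcl2 over Col-0, 5 were called higher, against 1.08% of all loci and 53.0% of miRNA loci, and 0 lower, against 0.299%, with 0 lower at an unadjusted p under 0.05 and by voom. Those 5 were MIR168A, MIR168B, MIR162A, MIR162B and MIR403, with log2 differences of 2.42 to 3.75 beside a miRNA median of 3.04. The scaling changed these counts to 0 higher and 2 lower with equal miRNA totals, and to 2 higher and 3 lower with equal table totals. All 5 calls ended when any 1 library of Col-0 or ein5 dcl4 dcl2 was left out, where 6 of the loci were higher at an unadjusted p under 0.05. The log2 differences then stayed at 2.06 to 2.78 for MIR162A and at 2.97 to 3.89 for the other 4, and the single library left in a genotype was assumed to vary like the other groups. Without an ein5 dcl4 library the calls of MIR168A and MIR168B remained and the others ended.

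**Figure D4:**
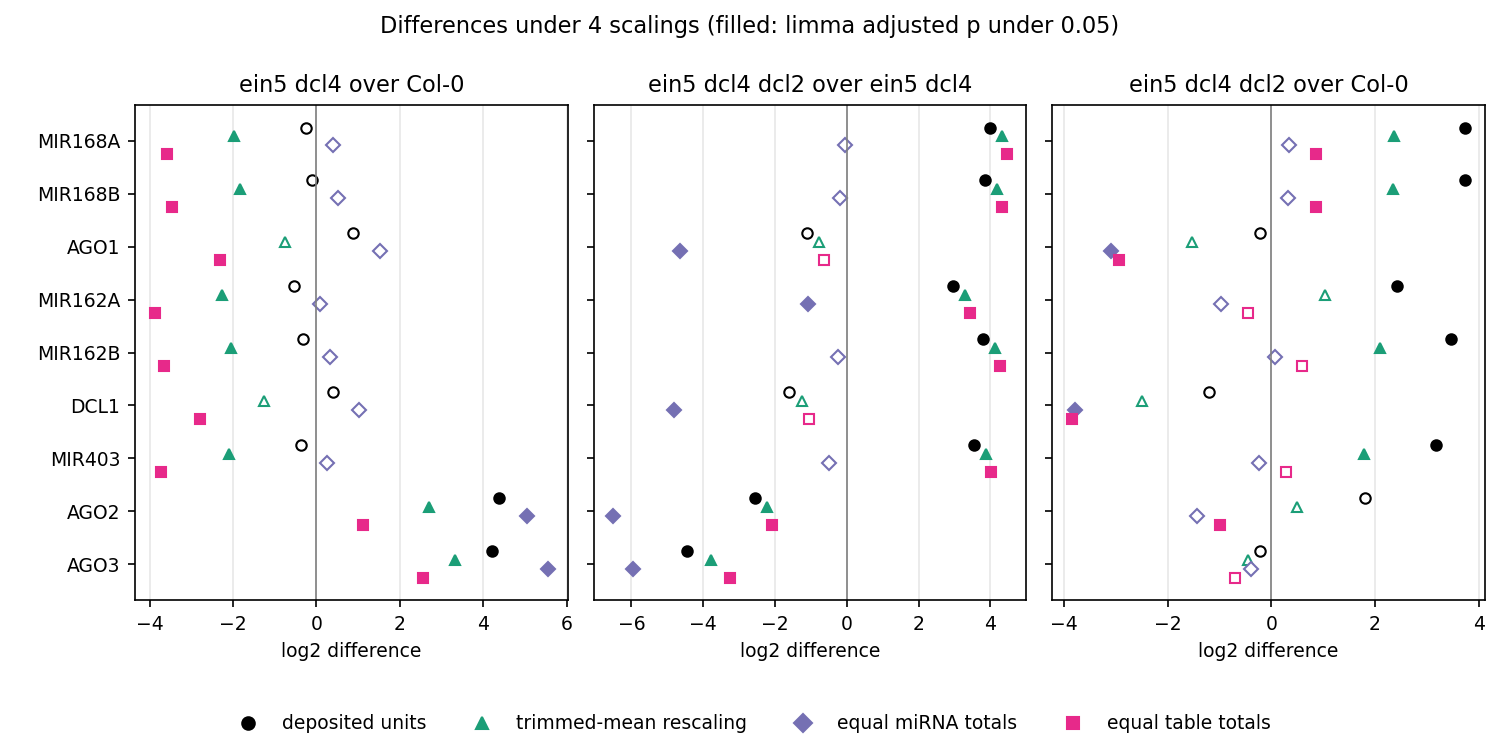
Log2 differences of 9 of the loci (MIR838 is left out) in the 3 comparisons under the deposited units and 3 other scalings; filled symbols have a limma adjusted p under 0.05. AGO2 was higher in ein5 dcl4 over Col-0 (1.10 to 5.06) and lower in ein5 dcl4 dcl2 over ein5 dcl4 (-6.50 to -2.09) under all 4 scalings, whereas the MIR genes shown changed sign in both.

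Among those 2 comparisons the direction of the MIR genes depended on the scaling, and that of AGO2 did not under the 4 tried. With equal table totals, MIR168A, MIR168B, MIR162A, MIR162B and MIR403 were called lower in ein5 dcl4 over Col-0, at -3.88 to -3.46, where deposited units called none of them. With trimmed-mean rescaling they were lower as well, at -2.26 to -1.84. The median of all loci in that comparison was 1.49 in deposited units, 0.23 with trimmed-mean rescaling, 1.54 with equal miRNA totals and -1.64 with equal table totals. AGO2 lay above this median of all loci, and AGO1 and DCL1 below it, under all 4, with AGO1 close to it at 1.53 with equal miRNA totals. The protein-coding median was 2.13, 1.64, 2.04 and 0.60 in the same order, and the 3 genes lay on the same sides of it. In deposited units AGO1 ranked 6534 and DCL1 6890 of the 7833 protein-coding loci from the highest difference. Whether they differ from that class was not tested.

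Other genes of small RNA biogenesis and action were read from a list of 30, of which 10 passed the filter. In ein5 dcl4 over Col-0, 7 of those 10 were called higher and 0 lower, where 38.7% of all loci and 55.4% of protein-coding loci were higher. The median was 2.74 beside 2.13 for protein-coding genes. CDC5, known for promoting miRNA precursor transcription and processing, held 3 and 2 reads in ein5 dcl4 and 0 in wild type. FBW2, an F-box protein that targets AGO1 for degradation, held 3 and 4 reads against 0 and 2. RDR1, an RNA-dependent RNA polymerase of antiviral defence, held 2 and 2 against 0 and 1. DCL4, which carries the dcl4-2 mutation in ein5 dcl4, held 4 and 8 against 0 and 4, and the part of the mutation in these reads was not tested. In ein5 dcl4 dcl2 over ein5 dcl4, 0 were higher and 7 lower, where 35.9% of all loci and 50.6% of protein-coding loci were lower. Among the 7 were CDC5, FBW2, RDR1 and CBP80, the large subunit of the nuclear cap-binding complex, each with 0 reads in the triple mutant. Between the triple mutant and wild type limma called 0 of the list, with 1 higher and 1 lower at an unadjusted p under 0.05. Most of the 10 passed the filter through ein5 dcl4, the genotype in which they were high, so these counts are a description.

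The loci whose values over the 6 libraries were most like each gene's were found by Euclidean distance between centred log2(units + 1) values. The 1844 candidates had a mean of at least 10 units. The nearest to MIR168A was MIR396a (distance 0.624) and to MIR168B was MIR159a (0.608). MIR161 was nearest to MIR162A (0.480), and MIR319a to MIR162B (0.289). MIR403 was nearest to the pseudogene AT1G30030 (0.274), followed by MIR159a (0.457). AGO1 and DCL1 were nearest to the pseudogenes AT4G03835 (0.763) and AT5G38705 (0.666). AGO2 was nearest to protein-coding genes, AT5G08690 (0.532), the chlorophyll-binding protein gene CAB1 (0.572) and AT1G07920 (0.589). AT5G08690 and AT1G07920 each held 30.6 and 22.3 units in ein5 dcl4, and reached the 10-unit mean only through that genotype. In wild type AT5G08690 held 0.185 and 0.257 units and AT1G07920 0.370 and 0.257, levels of few reads. CAB1 held 7.04 and 10.5 units in wild type, 153 and 131 in ein5 dcl4, and 29.0 and 24.7 in the triple mutant. CAB1 was picked for its likeness to AGO2, so the order of genotypes that they share is a description only.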

How the data were processed

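AGO1-bound small RNAs of 6 libraries were analysed, 2 per genotype. The authors deposited 1 signal value per locus and genotype, headed TPM per the file headers, and their own log2 fold changes and p-values for 2 comparisons. The submitters' processing notes name TAIR10, DESeq2, SAMtools 1.9 and Bowtie 1.2.2. Only read 1 was used per the labels. The sources used here do not give length filters, strand or the handling of multi-mapped reads.

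Each deposited value was split into whole reads of 2 libraries (100% of values within a relative tolerance of 2e-14). Libraries differed beyond sampling noise (chi-square per degree of freedom 3.18 to 5.82). The 11376 loci averaging 1 unit or more entered a limma fit (version 3.58.1, R 4.3.3) of log2(value + 1) over all 6 libraries, with 3 residual and 2.16 prior degrees of freedom. Calls needed a Benjamini-Hochberg adjusted p under 0.05 (two-sided). This scale understates changes of low loci. Ratios and shares used exact permutation tests in SciPy 1.17.1 and 95% binomial intervals, which cover counting error only, and ratios had 0.5 reads added for log2 values. TAIR10.1 from RefSeq gave positions and sequences; its sequence is taken as that of TAIR10, and 31722 of 32420 identifiers matched. The code was tested on simulated data with 200 changed loci per comparison. The fit recovered 24% to 28% of 4-fold changes and 68% to 72% of 16-fold changes. An uncalled difference therefore does not show that a level was unchanged. Named genes were the 10 loci, up to 4 called genes of the pathway list per comparison with the smallest adjusted p, and the 3 nearest patterns per locus. The loci and lists were chosen with earlier results of these data known. Alternatives were other pseudocounts, filters, scalings, denominators, a fit of 2 genotypes, voom and leaving out each library.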

Additional observations from a re-analysis of the deposited data

How the results depend on the processing

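No paired analysis was possible because the recovered libraries carry no replicate number. Of the 10 loci, 1 was higher in ein5 dcl4 over Col-0 with a mean of at least 10 units, since AGO3 was not tested there. Trimmed-mean rescaling gave 5 lower loci in that comparison and equal table totals gave 7, against 0 in deposited units. With equal miRNA totals, 0 were higher and 5 lower in ein5 dcl4 dcl2 over ein5 dcl4, and 0 higher and 2 lower over Col-0. With equal table totals 2 were higher and 3 lower over Col-0. Leaving out 1 library gave 0 to 2 higher over Col-0 in place of 5; limma then called 0 where the library was from Col-0 or ein5 dcl4 dcl2, with 6 higher at an unadjusted p under 0.05. The cause of these changes was not tested. AGO2 kept its calls in ein5 dcl4 over Col-0 and ein5 dcl4 dcl2 over ein5 dcl4 in every setting run. AGO3 entered the test only through ein5 dcl4, so its calls say nothing of stability. The same holds for the call of MIR838, which entered the test only through the triple mutant. The AGO2 ratio of ein5 dcl4 dcl2 over Col-0 turned to 1.95 with pseudogene reads as the denominator, chosen after seeing the data. The value of 1.95 for AGO3 there comes from the 0.5 reads added to 0 reads and is no change of direction.

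The log2 difference of ein5 dcl4 over Col-0 changed sign with equal miRNA totals for MIR168A (0.39), MIR168B (0.52), MIR162A (0.094), MIR162B (0.32) and MIR403 (0.26), none called. Without a library it lay between -0.51 and 0.028 for MIR168A and between -0.42 and 0.20 for MIR168B. Trimmed-mean rescaling turned AGO1 to -0.76 and DCL1 to -1.25, and equal table totals turned them to -2.32 and -2.79. The voom values of 1.44 for MIR838 there and of 1.96 for AGO3 in ein5 dcl4 dcl2 over Col-0 are set by the count voom adds to 0 reads and by library size, and give no direction. In ein5 dcl4 dcl2 over ein5 dcl4, equal miRNA totals gave -0.057, -0.19, -1.08, -0.26 and -0.50 for MIR168A, MIR168B, MIR162A, MIR162B and MIR403. Of these limma called only MIR162A (adjusted p = 0.0307). Over Col-0 the same scaling gave -0.98 for MIR162A, -0.24 for MIR403 and -1.44 for AGO2, equal table totals gave -0.46 for MIR162A and -0.98 for AGO2, and leaving out libraries gave AGO1 -0.97 to 0.52.

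Of all loci tested, the ein5 dcl4 over Col-0 comparison called 4401 higher and 734 lower, where trimmed-mean rescaling called 2840 and 2748, equal table totals 1605 and 4738, and a filter of 10 units 647 and 305. Counts in ein5 dcl4 dcl2 over ein5 dcl4 were 1288 and 4087, against 161 and 7755 with equal miRNA totals. Over Col-0 they were 123 and 34, against 4803 and 275 with voom and 0 and 0 without a Col-0 or ein5 dcl4 dcl2 library. Low reads limit AGO1, DCL1, AGO3 and MIR838, where a mutant library held at most 23 reads.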
